A study of Rattus norvegicus with 4 samples.

Results

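Microtubules are hollow filaments built from dimers of alpha and beta tubulin, and gamma tubulin with its complex proteins nucleates new filaments. Kinesins are motor proteins that walk along microtubules, stathmins bind tubulin dimers and destabilize the filaments, and microtubule-associated proteins (MAPs) bind along the filament and stabilize or decorate it. In the oligodendroglial lineage, microtubules carry organelles and mRNAs into the cellular processes, and mutations of tubulin genes are known to impair myelin. Tubulin, kinesin, stathmin and MAP genes were analysed here in OLN93, an immortalized line of rat cells with features of oligodendrocyte precursors. They were selected by symbol, as all genes that start with Tuba, Tubb, Tubg or Kif or match Stmn with a digit, plus Map1a, Map1b, Map2, Map4, Map6, Map7, Mapt, Dcx and Dclk1. This selection held 69 of the 17327 genes of the count files. The prefixes also take in genes that code for neither a tubulin nor a motor, namely Kif1bp, Kifap3 and the Tubgcp genes.

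The comparison was between 2 Sox10-positive control libraries (control 1 and control 2) and 2 libraries of Sox10-deficient cells (clone A and clone B), whose Sox10 gene had been inactivated with CRISPR/Cas9 and different guide RNAs. All cells were OLN93 cells grown in serum-containing medium. The labels call the controls biological replicates while the methods call them clones, and each edited clone stands for a single editing event, so that p-values measure the spread between these libraries. Sox10, the edited gene, had 28 and 64 counts in control cells but 0 in clone A and 14 in clone B (log2 fold change -2.74, standard error 0.62, adjusted p = 0.0172 by the quasi-likelihood test of edgeR, but 0.0959 without clone A).

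Library totals ran from 60951 to 104017 deposited counts, and the 69 genes took between 1.04% and 1.24% of them. These totals lie far below the number of reads that the study's methods report for each library. Levels are given as counts per M counts (CPM), normalized by the TMM method. At this depth, 3 counts, taken as the floor, corresponded to between 29.0 and 48.2 CPM, and floors and intervals of counts cover counting error only. Of the 69 genes, 25 had enough counts for edgeR's test, 27 had counts but too few, and 17 had none in any library. As the libraries hold whole cultures, fewer cells with a transcript and less transcript per cell cannot be told apart. All 8 markers of oligodendrocyte precursors, Sox10 among them, had counts, and their summed level was 2216 and 2004 CPM in controls 1 and 2 against 1445 and 1633 CPM in clones A and B. Without Sox10 the other 7 summed to 1767 and 1384 CPM against 1445 and 1474 CPM, so that the groups overlapped. Mag, Mobp and Cldn11, markers of myelinating oligodendrocytes, had no counts, and their list of 8 genes summed to 1349 and 968 CPM in the controls against 682 and 420 CPM. Of 8 neuron markers, 5 had no counts, and the list summed to 658 and 687 CPM in the controls against 301 and 11.3 CPM, most of it Nefm. Markers of Schwann cells and neural crest summed to 1317 and 1239 CPM in the controls against 289 and 113 CPM, while astrocyte markers reached at most 45.4 CPM and microglia markers lay between 96.4 and 170 CPM, each list with 3 or more of its 6 genes without counts. The part of these shifts in the results below was not tested.

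**Figure D1:**
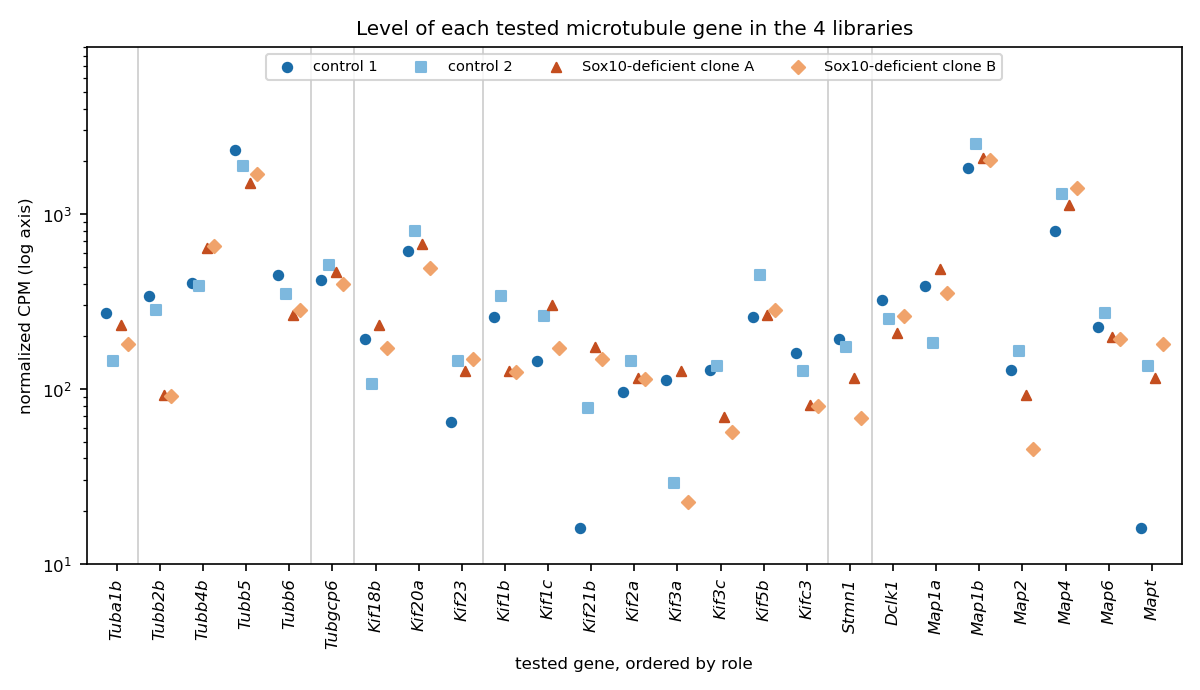
Normalized CPM on a log axis for the 25 tested tubulin, kinesin, stathmin and MAP genes, ordered by role and separated by grey lines between roles, with one symbol per library. Tubb2b lies at 337 and 281 CPM in the controls and at 92.5 and 90.7 CPM in the clones, and Tubb4b shows the opposite order.

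Most tested genes of the microtubule system did not pass the test. After adjustment over all 2438 tested genes, 1 of the 25 genes, Tubb2b, was lower in the clones without intact Sox10 and 0 had risen by the quasi-likelihood test of edgeR, against 2.5% and 1.19% of all tested genes. Without adjustment, 2 genes were lower and 2 higher at p up to 0.05 in the same test. The share of all tested genes at this threshold was not computed, so these counts cannot be set against it. DESeq2 called 0 of the 25 after adjustment, but it did not call Sox10 either. The study's methods list lower genes by thresholds of 2-fold and a p of 0.05 without naming an adjustment. With these thresholds applied in both directions to unadjusted p-values of edgeR, Tubb2b and Kif1b were lower and Kif21b was higher, where 6.97% and 4.63% of all tested genes were called. With DESeq2, 1 gene was lower and 0 were higher by these thresholds, against 103 lower and 68 higher of all 2438 tested genes. The controls and clones did not overlap for 11 of the 25 genes, which is close to the 43.2% among all tested genes. By direction, 9 of them lay lower in the clones and 2 lay higher, against 21.5% and 21.6% of all tested genes. The median log2 fold change was -0.13 over the 25 genes and -0.01 over all tested genes. A 95% interval that lay within 2-fold in either direction was reached by 5 of the 25 genes, so that for the other 20 a change of 2-fold was not excluded at this depth.

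**Figure D2:**
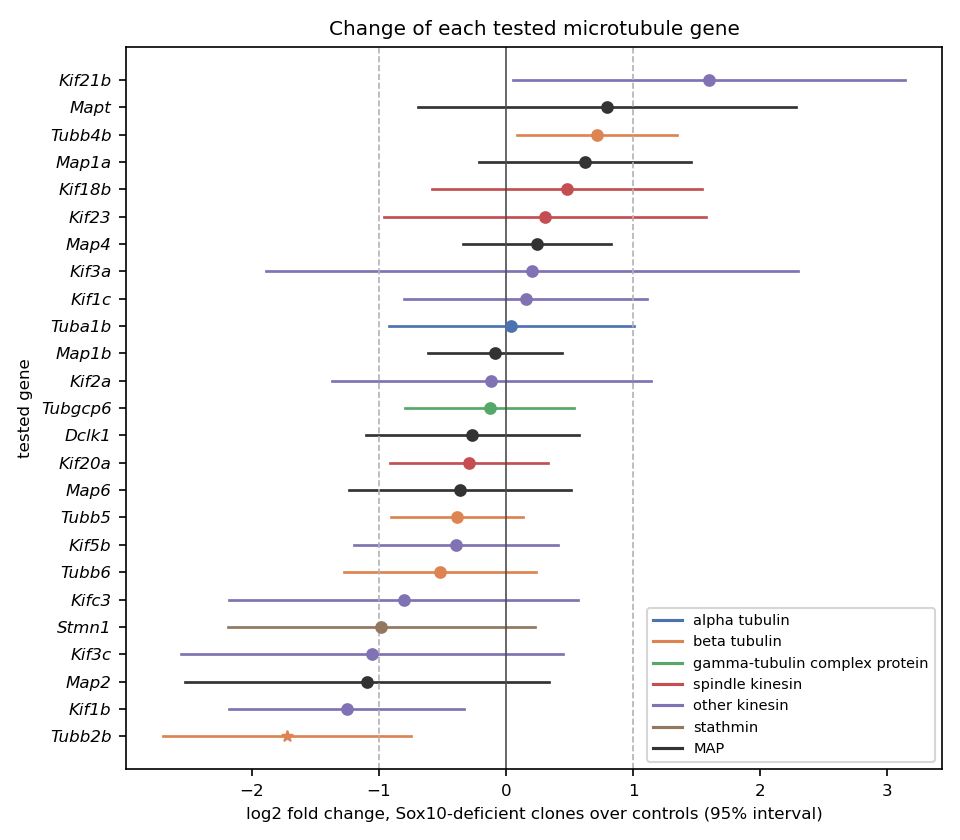
Log2 fold change of the Sox10-deficient clones over the controls for the 25 tested genes, with the 95% interval of edgeR's fit, coloured by role; dashed lines mark 2-fold and the star an adjusted p of 0.05 or less. Tubb2b is the single starred gene, and 21 of the 25 intervals hold 0.

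Beta tubulins carried the clearest difference. Tubb2b encodes a beta-tubulin isotype of the developing nervous system, in which mutations disturb the formation of the cortex. It had 21 and 29 counts in control cells and 8 in each clone. This made 337 and 281 CPM in controls 1 and 2 and 92.5 and 90.7 CPM in clones A and B. Both clones lay well below both controls. On the log2 scale the fold change came to -1.72 (standard error 0.46, adjusted p = 0.0468 by the quasi-likelihood test of edgeR), with a 95% interval from -2.70 to -0.75. The log2 fold change stayed between -1.86 and -1.60 whichever library was left out, but the call lay at the threshold. The adjusted p was 0.411 with DESeq2 and between 0.0821 and 0.211 in the fits with one library fewer, in the quasi-likelihood test of edgeR. Tubb2b and Kifc3 belong to the study's candidate Sox10 target genes in precursors. These had to be at least 2-fold lower in these same libraries, lie near published Sox10 binding and be enriched in precursors in published profiles. As the first criterion came from these libraries, the list is no independent evidence of their direction. The estimate for Kifc3 did not reach 2-fold here, with a log2 fold change of -0.81 (95% interval -2.18 to 0.57, adjusted p = 0.652 by the quasi-likelihood test of edgeR). It rests on 10 and 13 counts in control cells and 7 in each clone, on average 0.605% of the authors' mean of 1530. The interval holds a level 2-fold lower, so this estimate cannot decide whether Kifc3 meets the study's criterion.

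Tubb2a, a close paralog of Tubb2b, is annotated near it on the same chromosome in the rat assembly GRCr8, and reads that map to both would not be unique. It had 1 and 2 counts in control cells and 0 in both clones, all at or under the floor. With both genes counted as one, a choice made after seeing the data, the counts were 22 and 31 in control cells and 8 in each clone. Their log2 fold change was then -1.81 (adjusted p = 0.0332 by the quasi-likelihood test of edgeR). These counts are too few to show whether Tubb2a changed, and the sum rests almost wholly on Tubb2b.

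Tubb4b, a broadly expressed isotype that is abundant in ciliated cells, ran the other way. It had 401 and 387 CPM in the controls and 636 and 658 CPM in clones A and B, so that both clones lay above both controls. Its log2 fold change was 0.72 (95% interval 0.08 to 1.35), with an unadjusted p of 0.0286, but the adjusted p by the quasi-likelihood test of edgeR was 0.251. Tubb4b was not called by either criterion. In GRCr8 it overlaps another coding gene, Cimip2a, and the strand option of the counting is not given in the sources used here.

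Tubb5, the main class I isotype of dividing cells, had 2313 and 1878 CPM in the controls and 1503 and 1690 CPM in the clones. Tubb6, a class V isotype, had 450 and 348 CPM in the controls and 266 and 283 CPM in the clones. For both genes the groups did not overlap, but the differences did not pass the test, with log2 fold changes of -0.39 (95% interval -0.91 to 0.14) and -0.52 (95% interval -1.27 to 0.24). Tubb3, the isotype of neurons, and Tubb4a, which is prominent in myelinating oligodendrocytes, had no counts. A count of 0 allows a level of up to 29.0 to 48.2 CPM, depending on the library. Summed over the 7 listed beta tubulins, the level was 3517 and 2914 CPM in the controls and 2498 and 2721 CPM in the clones, a ratio of 0.812.

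Because Tubb2b and Tubb4b differed in opposite directions, their shares of all beta-tubulin counts within each library were compared. This choice was made after their values were seen. The shares re-express the same counts, so they are no separate evidence of a difference. These shares do not depend on the normalization between libraries, but a share also rises when counts of the other beta tubulins fall. They are not corrected for transcript length and were therefore compared only within a gene. Tubb4b made up 11.4% (95% Wilson interval 7.85 to 16.3%) of 219 beta-tubulin counts in control 1 and 13.3% (9.91 to 17.6%) of 301 in control 2. In the clones its share was 25.5% (20.1 to 31.7%) of 216 counts in clone A and 24.2% (19.2 to 30.0%) of 240 in clone B. The intervals of both clones lay above those of both controls, but they cover counting error only and not the spread between libraries. On average the share of Tubb4b was 12.4% ± 1.32 in the controls and 24.8% ± 0.917 in the clones (SD, n = 2 each).

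Tubb2b made up 9.59% (95% Wilson interval 6.36 to 14.2%) in control 1, 9.63% (6.79 to 13.5%) in control 2, 3.70% (1.89 to 7.14%) in clone A and 3.33% (1.70 to 6.44%) in clone B. The shares of the clones were lower, although the interval of each clone reached into that of control 1 and, for clone A, also into that of control 2. The dominant isotype, Tubb5, made up 65.8% and 64.5% in control cells and 60.2% and 62.1% in the clones, with overlapping intervals. With 2 libraries against 2, an exact two-sided permutation test cannot go below p = 0.333, and no other test of these shares was run.

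**Figure D3:**
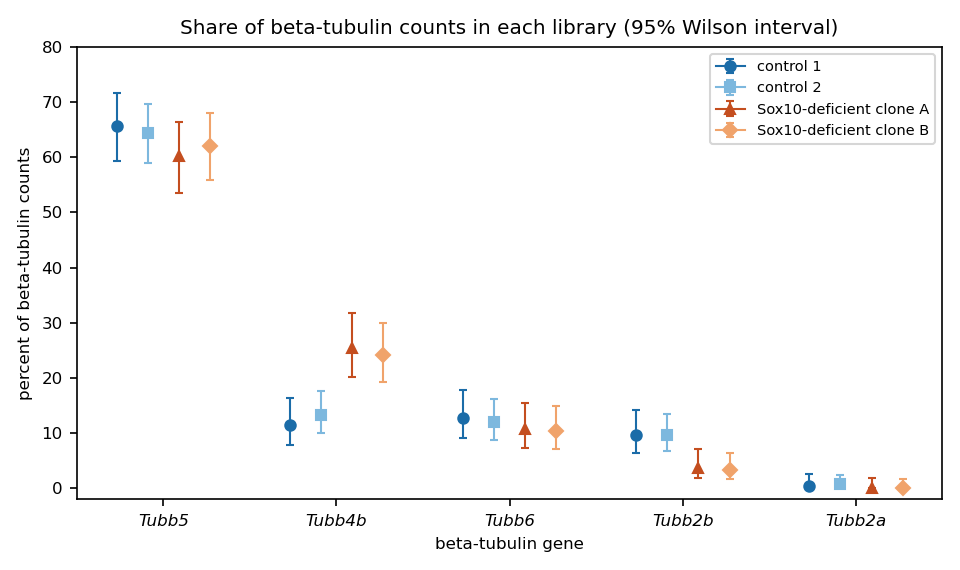
Percent of all beta-tubulin counts that fell on each of the 5 beta-tubulin genes with counts, one symbol per library, with 95% Wilson intervals that cover counting error only. For Tubb4b the clones lie at 25.5% and 24.2% and the controls at 11.4% and 13.3%, and for Tubb2b the order is the opposite.

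The promoters of these oppositely placed isotypes are shown because both genes belong to a set compared after the loss of a transcription factor. The sequences were taken from RefSeq on the assembly GRCr8 and run 5′ to 3′ from 250 bases before to 50 bases after the annotated start of the gene, at chr17:30952836-30953135 on the plus strand for Tubb2b and chr3:28438406-28438705 on the minus strand for Tubb4b. Capitals mark matches on either strand to ACAAAG and ACAAT, core letters of sites bound by Sox proteins, and to CCAAT, the letters of the CCAAT box. None of the matches overlap each other.
Tubb2b: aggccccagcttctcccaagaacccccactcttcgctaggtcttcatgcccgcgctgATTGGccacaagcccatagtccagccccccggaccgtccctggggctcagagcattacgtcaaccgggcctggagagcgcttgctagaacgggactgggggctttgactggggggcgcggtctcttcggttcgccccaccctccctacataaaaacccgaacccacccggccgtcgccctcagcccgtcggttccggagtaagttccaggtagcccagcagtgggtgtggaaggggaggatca
Tubb4b: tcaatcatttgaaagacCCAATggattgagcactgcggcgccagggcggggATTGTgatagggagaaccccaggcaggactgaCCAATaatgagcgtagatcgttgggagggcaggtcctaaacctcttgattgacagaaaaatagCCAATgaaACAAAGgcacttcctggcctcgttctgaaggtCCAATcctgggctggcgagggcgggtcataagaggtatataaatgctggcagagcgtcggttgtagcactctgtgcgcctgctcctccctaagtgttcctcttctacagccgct

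The window of Tubb2b held 1 match to CCAAT, on the opposite strand, and none to ACAAAG or ACAAT. The window of Tubb4b held 4 matches to CCAAT, 1 to ACAAAG and 1 to ACAAT. Such letters are common, since 18.8% of all 33469 promoter windows held ACAAAG, 33.7% held ACAAT and 37.5% held CCAAT. Among the 57 windows that matched genes of the selection, 9 held ACAAAG, 13 held ACAAT and 26 held CCAAT. A match is a description of the sequence and does not show that a factor binds there.

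Alpha tubulins were represented by a single tested gene. Tuba1b, an isotype of most cells, had 273 and 145 CPM in the controls and 231 and 181 CPM in the clones, with overlapping groups and a log2 fold change of 0.04 (95% interval -0.92 to 1.00). Of the 8 listed alpha tubulins, Tuba1c, Tuba3b and Tubal3 had no counts. Tuba1a, the isotype best known from developing neurons, had 2 and 0 deposited counts in control cells and 1 and 3 in the clones. These were too few for a difference to be detectable. Tuba1a, Tuba1b and Tuba1c lie together in GRCr8 and overlap in part, and reads shared by their nearly identical coding sequences would not be unique. The authors' deposited mean normalized count over all libraries was 16462 for Tuba1a. Why its deposited counts per library were so few was not tested.

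Gamma tubulins had too few counts to be tested. Here and below, pooled ratios are given only for genes with at least 10 counts whose groups did not overlap. Their intervals come from the counts used to pick these genes and cover counting error only. An interval that misses 1 is therefore no test of a difference. Tubg1, the main gamma tubulin of dividing cells, had 48.2 and 96.8 CPM in the controls and 150 and 34.0 CPM in the clones, which overlapped. Its paralog Tubg2 had 1 and 2 counts in control cells and 2 and 9 in the clones, a pooled ratio of 3.48 (95% exact interval 0.918 to 19.4). This ratio came to 1.28 when clone B was left out and to 5.63 when clone A was. The deposited counts of Tubg2 averaged 3.43% of the authors' mean of 102, against a median of 0.384% for genes with a mean of at least 500. The complex protein Tubgcp3 had 5 and 13 counts in control cells, 6 in clone A and 0 in clone B, and pooled over libraries its ratio of clones to controls was 0.316 (95% exact interval 0.103 to 0.831). Clone B, with no count, carried most of this difference, as clone A at 69.4 CPM lay just below control 1 at 80.3 CPM. Without clone B the ratio was 0.638 (0.207 to 1.68). Tubgcp6, the one complex protein with enough counts, had 418 and 513 CPM in the controls and 463 and 397 CPM in the clones, with a log2 fold change of -0.13 (95% interval -0.80 to 0.54).

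Kinesins were listed with 33 motor genes, of which 11 were tested and 9 had no counts. None passed the adjusted threshold. Kif1b, a motor that carries mitochondria and vesicles and is known to be needed for Mbp mRNA transport in oligodendrocytes of zebrafish, stood out at the lower end. It had 257 and 339 CPM in controls 1 and 2 and 127 and 125 CPM in clones A and B, so that both clones lay below both controls. The log2 fold change was -1.25 (standard error 0.44, 95% interval -2.18 to -0.33) with an unadjusted p of 0.0105, and the adjusted p by the quasi-likelihood test of edgeR was 0.142. Control 2 carried part of this difference, as the unadjusted p was 0.109 without it, at a log2 fold change of -1.02.

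Kif1bp codes for a protein that binds Kif1b and other kinesins and keeps them off the microtubule. It had 2 and 8 counts in control cells and 1 in each clone and was too low for the test. Its pooled ratio of clones to controls was 0.190 (95% exact interval 0.0202 to 0.890). Control 2 held 8 of the 10 control counts, and without it the ratio was 0.356 (0.0258 to 4.92), so that a lower level of Kif1bp was not detectable from control 1 alone.

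Kif21b, a motor that also regulates microtubule growth, stood at the upper end, with 1 and 8 counts in control cells and 15 and 13 in the clones. This made 16.1 and 77.4 CPM in the controls against 173 and 147 CPM in the clones. The groups did not overlap. On the log2 scale the difference came to 1.59 (standard error 0.73, 95% interval 0.05 to 3.14) with an unadjusted p of 0.0436, and the adjusted p was 0.312 by the quasi-likelihood test of edgeR. The value hung on control 1, as it was 1.04 without this library (unadjusted p = 0.152) and 3.20 without control 2 (unadjusted p = 0.00953). Without clone A or clone B the unadjusted p was 0.185 or 0.0906.

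The remaining cargo motors were closer to the controls or too variable to judge. Kif5b, the heavy chain of conventional kinesin in most cells, had 257 and 445 CPM in the controls and 266 and 283 CPM in the clones. Kif1c, a close relative of Kif1b, had 145 and 261 CPM against 301 and 170 CPM. These groups overlapped, and Kif1c did not share the lower values of Kif1b in clone A. Kif3c, a subunit of a heterotrimer-type kinesin of nerve cells, had 128 and 136 CPM in the controls and 69.4 and 56.7 CPM in the clones, with a log2 fold change of -1.05 (95% interval -2.56 to 0.45). Its relative Kif3a had 112 and 29.0 CPM in the controls and 127 and 22.7 CPM in the clones, so that replicates of one group differed more than the groups did. Kifc3, a motor that walks to the minus end, had 161 and 126 CPM in the controls and 80.9 and 79.4 CPM in the clones, with a log2 fold change of -0.81 (95% interval -2.18 to 0.57). Kif2a, which takes filaments apart at their ends, lay between 96.4 and 145 CPM in all 4 libraries.

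Among motors below the test's limit, Kif13a, an endosomal motor, had 10 counts in each control and 3 and 6 counts in clones A and B. Its pooled ratio of clones to controls was 0.427 (95% exact interval 0.171 to 0.980), and this interval held 1 when control 1 or clone A was left out. Kifap3, which links a heterotrimeric kinesin to its cargo, had 4 and 7 counts in control cells and 4 and 5 in the clones, a pooled ratio of 0.776 (0.284 to 2.06). Of the 17 genes of the selection with at least 10 counts that were too low for the test, 8 had CPM that did not overlap between groups. Among all genes in this range of counts, the groups did not overlap for 37% of 3526.

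Spindle kinesins drive chromosome movement and cell division, and 3 of the 11 listed were tested. Kif20a, a motor of cytokinesis, had 610 and 794 CPM in the controls and 671 and 488 CPM in the clones. Kif23, a part of the midzone complex, had 64.2 and 145 CPM in the controls and 127 and 147 CPM in the clones. Kif18b, which shortens astral microtubules, had 193 and 106 CPM in the controls and 231 and 170 CPM in the clones. All 3 overlapped between groups, and their adjusted p-values by the quasi-likelihood test of edgeR lay between 0.752 and 0.901. Summed over the 11 spindle kinesins, the level was 1204 and 1471 CPM in the controls and 1434 and 1123 CPM in the clones.

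Below the limit of the test, Kif15 had 6 and 10 counts in control cells and 5 and 3 in the clones, Kif20b had 5 and 14 against 5 and 7, and Kif22 had 1 and 2 against 5 and 2. The pooled ratios of clones to controls were 0.474, 0.599 and 2.21, with 95% exact intervals that all held 1. Of 20 other genes of mitosis, 13 were tested and 1 fell, Cdk1, the kinase that drives entry into mitosis, with a log2 fold change of -2.87 (adjusted p = 0.0373 by the quasi-likelihood test of edgeR). Its counts were 17 and 18 in control cells against 1 and 4 in clones A and B. The mitosis genes together summed to 5396 and 4153 CPM in the controls and to 3538 and 3402 CPM in the clones, whereas the spindle kinesins did not separate the groups. The part of the mitosis genes' lower sum in the values of Stmn1 and Tubb5, which are also typical of dividing cells, was not tested.

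Stathmins were represented by Stmn1, which sequesters tubulin dimers and is typical of proliferating cells. It had 193 and 174 CPM in the controls and 116 and 68.0 CPM in the clones. Both clones lay below both controls, but the log2 fold change of -0.98 (95% interval -2.19 to 0.23) did not pass the test, with an unadjusted p of 0.105. Stmn2 and Stmn4, stathmins of nerve cells, had no counts. Stmn3 had between 0 and 3 counts, at or under the floor.

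MAPs gave 7 tested genes, and their adjusted p-values by the quasi-likelihood test of edgeR lay between 0.516 and 0.947. Map1b, which binds microtubules in growing processes of neural cells, had 1831 and 2507 CPM in the controls and 2081 and 2030 CPM in the clones. Its log2 fold change of -0.09 (95% interval -0.61 to 0.44) was among the most precise. Map4, the MAP of most dividing cells, had 803 and 1297 CPM in the controls and 1122 and 1406 CPM in the clones, with a log2 fold change of 0.24 (95% interval -0.34 to 0.82). For both genes the interval left no room for a change of 2-fold.

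Map2, best known from dendrites, lay lower in the clones, with 128 and 165 CPM in the controls against 92.5 and 45.4 CPM. Its log2 fold change of -1.09 had a 95% interval from -2.53 to 0.34. Map1a, which is abundant in mature neurons, leaned the other way, with 385 and 184 CPM in the controls against 486 and 352 CPM and a log2 fold change of 0.62 (95% interval -0.22 to 1.46). Neither difference passed the test, and the groups overlapped for Map1a. Map6, which makes microtubules resistant to cold, had 225 and 271 CPM in the controls and 197 and 193 CPM in the clones. Dclk1, a kinase with doublecortin domains, had 321 and 252 CPM against 208 and 261 CPM. Dcx, the doublecortin of migrating neurons, had no counts, and Map7, which recruits kinesin to the filament, had 3 or 4 counts in every library.

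Mapt, which encodes tau, had 1 and 14 counts in control cells and 10 and 16 in the clones, a log2 fold change of 0.79 with a 95% interval from -0.69 to 2.28. Control 1 was the lowest library, while control 2 lay between the clones. The log2 fold change was 0.13 without control 1 and 3.09 without control 2 (unadjusted p = 0.0166), so that its size rested on which control was used. Counts for Mapt were also unusual against the authors' deposited table, which holds the authors' mean normalized count over all libraries for each Ensembl gene. The mean deposited count per library was 0.384% of the authors' mean in the median of 5387 genes whose mean was at least 500. For Mapt it was 12.2% of an authors' mean of 84, and for Tubgcp6 it was 6.18% of 623. The 22 other tested genes with an authors' mean lay between 0.196% and 1.15%, among them Tubb2b at 0.197%, Tubb4b at 0.233% and Kif1b at 0.196%. In the opposite direction, Tuba1a had 6 counts in all at an authors' mean of 16462, and Tubb2a had 3 counts at an authors' mean of 2294. The deposited counts and the authors' means thus did not keep one ratio for these genes, and the reason was not tested. In GRCr8, 68 of the 69 genes could be matched, and 21 of these overlap another coding gene, Tubgcp6 among them, while Mapt does not.

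**Figure D4:**
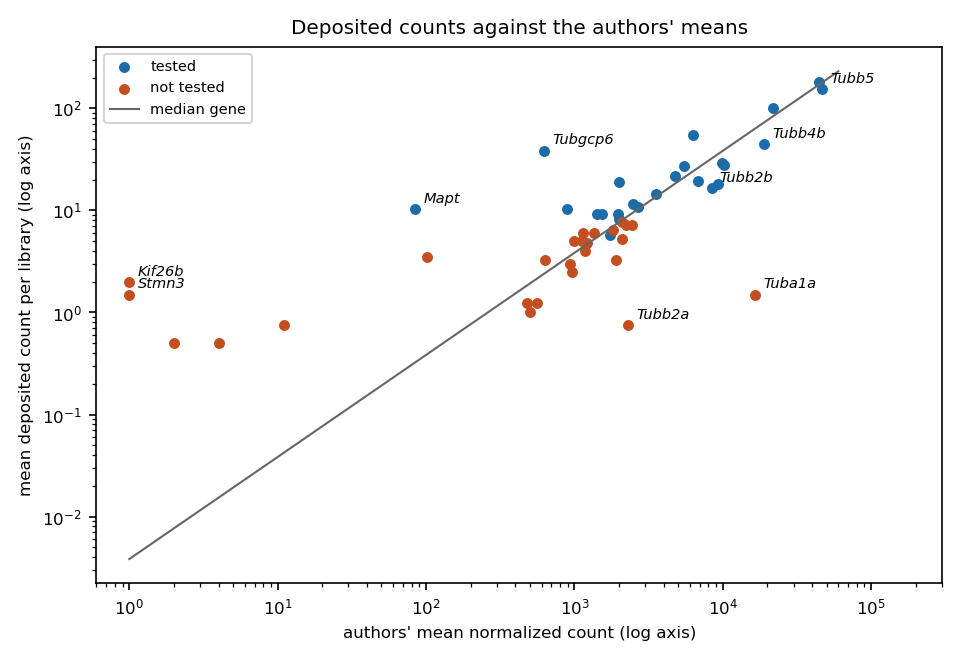
Mean deposited count per library against the authors' mean normalized count for the genes of the selection that have both above 0, on log axes, with tested genes in blue, genes too low for the test in orange, and a line at the median of 0.384%. Of the tested genes, Mapt and Tubgcp6 lie farthest above the line. Tuba1a, which was too low for the test, lies far below the line at an authors' mean of 16462. Some genes too low for the test also lie above the line, among them Tubg2 and, each at an authors' mean of 1, Kif26b and Stmn3.

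Other genes of the microtubule system were examined through 5 lists of kinesin light chains and adaptors, dynein and dynactin, tubulin folding and modification, filament ends, and further MAPs and severing enzymes. Leaving out 4 Tubgcp genes that belong to the selection, 79 of 89 genes were listed in the count files and 31 could be tested. After adjustment by the quasi-likelihood test of edgeR 0 of the 31 were called, as with DESeq2. Without adjustment or a fold threshold 2 were lower and 1 higher, for which the share of all tested genes was not computed. The median log2 fold change was -0.20. Under the 2-fold criterion without adjustment 2 were lower and 0 higher, against 6.97% and 4.63% of all tested genes. The lower ones were Actr1b, a subunit of the dynactin filament, and Klc1, a kinesin light chain. Actr1b had 241 and 368 CPM in the controls and 80.9 and 136 CPM in the clones, with a log2 fold change of -1.51 (unadjusted p = 0.00485, adjusted p = 0.0922). Klc1 had 787 CPM in control 1 but 174 CPM in control 2, 185 CPM in clone A and 193 CPM in clone B, so that its value rested on control 1. Tppp and Tppp3, which bundle microtubules and of which Tppp is typical of myelinating oligodendrocytes, had no counts.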

How the data were processed

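Stranded mRNA libraries of 2 control and 2 Sox10-deficient OLN93 samples were analysed. Per the labels and the study's methods, the authors aligned the reads with STAR 2.5.1 against rn5, a rat assembly, and deposited unnormalized counts of unique reads per gene symbol from HTSeq. The methods name an Ensembl annotation for the counting, whereas the count files carry gene symbols; the strand option is not given in the sources used here. The authors also deposited a table per Ensembl gene, whose mean read count, a rounded score, was used as the authors' mean. Its fold changes, standard errors, Wald statistics and p-values were not used.

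Genes kept by filterByExpr and scaled by TMM were tested with glmQLFit and glmQLFTest of edgeR 4.0.16 (R 4.3.3), with condition as the sole term and Benjamini-Hochberg adjustment over all 2438 tested genes. Standard errors and 95% intervals were derived from the F statistic. The test was also tested on simulated counts. Alternatives were DESeq2 1.42.0, other scalings and filters, the replicate number in the model, and leaving out each library. Pooled ratios have exact binomial intervals (Python 3.11.15, scipy 1.17.1).

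Genes named are all tested genes of the selection, and those with at least 10 counts that were too low for the test and whose groups did not overlap. From the lists of other microtubule and mitosis genes, those called by either criterion are named. Genes with no counts or few counts, and genes discussed for their authors' mean, were named after their values were seen. The genes, lists and markers were chosen with earlier results of these data known. Total deposited counts were 60951 and 104017 in controls 1 and 2, 86817 in clone A and 89128 in clone B. These totals limit the precision of genes with few counts.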

Additional observations from a re-analysis of the deposited data

Results flagged for a closer look

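The values named here come from the authors' deposited means, which the comparison of counts did not use. For 8 genes of the selection that the count files do not list, the authors' mean normalized count was above 3. These were Kif21a with 2407, Kif4a with 1369, Kif14 with 1234, Tubgcp4 with 935, Kif7 with 645, Kif24 with 322, Kif6 with 28 and Kif1a with 9. A further 10 genes were listed but lay at or under 3 counts in each library. Their authors' means were 16462 for Tuba1a, 2294 for Tubb2a, 503 for Kif26a, 481 for Kif18a, 37 for Tubb3, 11 each for Tuba4a, Kif5a and Kif9, 8 for Kifc2 and 4 for Tuba3a. The scales differ, as the median deposited count was 0.384% of the authors' mean. At that ratio, 6 of these 18 means correspond to more than 3 deposited counts, namely those of Kif14, Kif21a, Kif4a, Tubgcp4, Tuba1a and Tubb2a, and the other 12 to fewer. For Tuba1a the mean corresponds to 63.2 counts per library and for Tubb2a to 8.81. These means pool all 4 libraries, so that they give no comparison between groups, and no library with values of its own was used for them.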

How the results depend on the processing

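The depth of the deposited counts limited these results, since 27 genes of the selection had counts but too few for the test. Deposited counts stood at 0.384% of the authors' mean in the median of genes with a mean of at least 500. After adjustment, the number of lower genes among those selected was 1, and it was 0 with DESeq2, with DESeq2's size factors in edgeR, without a filter, with at least 10 counts in every library, with the replicate block, and in each fit that left out a library (range 0 to 0). The gene concerned was Tubb2b, whose log2 fold change stayed between -1.86 and -1.60 over all alternatives, with adjusted p-values from 0.0332 to 0.411. It was not tested with at least 10 counts in every library, because the clones had 8. By 2-fold and the unadjusted p, 2 genes were lower, against 1 with DESeq2 and 1 with at least 10 counts in every library, and 1 to 2 with a library left out. By the same criterion 1 gene was higher, against 0 with DESeq2, 0 with at least 10 counts in every library, 0 with the replicate block, and 0 to 2 with a library left out. Beyond the fewer genes or libraries of some settings, the cause was not tested. Same-numbered libraries had deviations that correlated at 0.122, and the numbers are not known to pair them. With 2 libraries per group the crossed numbers give -0.122 by construction, so this value cannot show whether the libraries are paired. Over all genes, adjusted calls numbered 61 lower and 29 higher. They were 28 and 14 with the replicate block, 28 and 9 with DESeq2, and 30 to 68 and 9 to 42 with a library left out. At least 10 counts in every library gave 24 lower genes, and 47 higher ones were found without a filter. By 2-fold and the unadjusted p, 170 lower and 113 higher genes became 329 and 295 without a filter, 39 and 32 with at least 10 counts in every library, and 103 and 68 with DESeq2. Sox10 kept its direction, but its adjusted p by edgeR was 0.125 with the replicate block. DESeq2 gave Sox10, the edited gene, an unadjusted p of 0.217 and did not call it.

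Directions turned for 9 uncalled genes, in all cases when a library was left out. Their log2 fold changes then ranged from -0.30 to 0.69 for Kif1c, -0.080 to 1.08 for Kif23, -0.34 to 0.24 for Kif2a, -1.46 to 1.32 for Kif3a and -0.69 to 0.095 for Kif5b. They ranged from -0.29 to 0.17 for Map1b, -0.038 to 0.65 for Map4, -0.40 to 0.50 for Tuba1b and -0.26 to 0.040 for Tubgcp6. Scalings moved the median log2 fold change of all tested genes by less than 0.1. With a library left out, the ratio of summed levels ranged from 0.827 to 1.45 for alpha tubulins, 0.839 to 1.07 for spindle kinesins and 0.914 to 1.18 for MAPs, on both sides of 1, and from 0.742 to 0.896 for beta tubulins. The difference in the share of Tubb4b was 11.5 to 13.4 percentage points with a library left out, and that of Tubb2b was -6.28 to -5.91.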
